A study of Mus musculus with 33 samples.

Results

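The nuclear lamina and envelope genes described here were 10 genes chosen by name: the lamins Lmna, Lmnb1 and Lmnb2, the inner nuclear membrane proteins Lbr, Tmpo and Emd, and the nuclear bridge components Sun1, Sun2, Syne1 and Syne2. All 10 had a row among the 14862 gene rows of the deposited count table. The cells were 33 single cells from the heart ventricles of transgenic mice, of the FUCCI reporter type, carrying Azami Green fused to geminin (mAG-hGem), which marks cells between the start of DNA synthesis and division. Cells were sorted by this fluorescence into 10 positive and 11 negative cells at embryonic day 14.5 (E14.5) and 6 positive and 6 negative cells at postnatal day 5 (P5). All 4 groups carried the reporter, and neither its promoter nor the number of mice is stated in the sources used here. Each accepted cell had passed a PCR check for Tnnt2, a cardiomyocyte gene, and against Pdgfrb. No animal is named for any cell, so each group was 1 sample, the cells within it were not replicates of a condition, and no test between groups was possible.

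The lamina is a meshwork of lamin filaments under the inner nuclear membrane. B-type lamins (Lmnb1, Lmnb2) stay attached to the membrane through a lipid anchor, whereas lamin A loses its anchor during processing. The A-type lamins made from Lmna are generally more abundant in stiff, differentiated tissues such as muscle. At mitosis the lamina is taken apart by phosphorylation and then rebuilt on the chromatin of the daughter nuclei, with Lbr, Tmpo and Emd products among the proteins that tether membrane to chromatin. SUN proteins and nesprins (Syne1, Syne2) join the nucleus to the cytoskeleton, and mutations of LMNA and EMD cause heart and skeletal muscle disease in people.

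The bases just before the transcription start are shown for 3 members whose summed level was higher in E14.5 positive than in E14.5 negative cells and whose level exceeded the E14.5 negative median in every positive cell. Lmnb1 met the same rule and is not shown. For Lmnb2 the E14.5 negative median was 0 CPM, so 1 read in each positive cell was enough to meet it. The share of all genes meeting the rule was not counted, so the rule only chose which windows to print. The sequences come from RefSeq on GRCm38.p6, run 5′ to 3′ on the gene's strand and end 1 base before a RefSeq start. The windows are chr1:181842402-181842651 for Lbr, chr10:91171620-91171869 for Tmpo and chr10:80918246-80918495 for Lmnb2, all on the minus strand. Capitals mark a CCAAT box (CCAAT) or a CHR element (TTTGAA), 2 motifs common before cell cycle genes, read on either strand.
Lbr: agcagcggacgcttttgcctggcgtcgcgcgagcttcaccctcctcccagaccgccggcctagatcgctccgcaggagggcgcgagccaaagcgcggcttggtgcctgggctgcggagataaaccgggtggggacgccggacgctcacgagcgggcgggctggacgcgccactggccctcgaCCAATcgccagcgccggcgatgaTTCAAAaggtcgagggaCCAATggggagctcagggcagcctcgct
Tmpo: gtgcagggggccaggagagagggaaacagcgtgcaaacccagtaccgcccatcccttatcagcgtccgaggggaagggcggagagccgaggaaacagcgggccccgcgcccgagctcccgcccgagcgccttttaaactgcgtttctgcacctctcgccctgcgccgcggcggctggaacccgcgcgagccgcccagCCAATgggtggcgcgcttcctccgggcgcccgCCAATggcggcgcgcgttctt
Lmnb2: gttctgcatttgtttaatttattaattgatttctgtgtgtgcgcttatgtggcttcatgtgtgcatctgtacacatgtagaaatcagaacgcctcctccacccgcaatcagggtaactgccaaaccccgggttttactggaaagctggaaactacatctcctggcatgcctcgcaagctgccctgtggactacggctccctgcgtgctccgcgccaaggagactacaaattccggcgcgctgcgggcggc

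The Lbr window held 2 CCAAT boxes, ending 63 and 23 bases before the start, and 1 CHR match on the opposite strand ending 39 bases before it. The Tmpo window held 2 CCAAT boxes, ending 48 and 16 bases before the start, and the Lmnb2 window held neither motif. Windows of 250 bases were searched for 9 members. A CCAAT box occurred in 5 of them (Lbr, Tmpo, Emd, Sun1 and Sun2) and in 33.8% of the 32851 RefSeq windows of this length. The CHR element occurred in 2 of them (Lbr and Sun2) and in 16.0% of all windows. An E2F site (TTTCCCGC, TTTCGCGC, TTTGCCGC or TTTGGCGC) occurred in none of the 9 and in 1.86% of all windows. These are matches of letters, and binding was not measured.

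Total counts per cell ran from 2545036 in L1P5 to 38465225 in G27, with a median of 12807230. Values with equal weight of cells count L1P5 as much as the deeper cells. Levels are given as a cell's counts scaled to a total of 1000000 (CPM), and group levels as CPM of the summed counts. A cell with no read of a gene allows up to 3 counts, which is 0.0780 CPM in the deepest and 1.18 CPM in the shallowest cell. Cardiomyocyte markers led over 4 other marker lists in 25 cells. At E14.5 the exception was N10 (negative sort), with 46775 CPM of fibroblast and mural markers. N10 also had 23387 CPM of cardiomyocyte markers, within the range of its group (18024 to 47544 CPM). Among positive cells of P5 the exception was L2P12, with 13790 CPM of endothelial markers against 114 CPM of cardiomyocyte markers. All 8 endothelial markers were at 10 CPM or more in it. Endothelial marker sums were at most 8.69 CPM among positive and 26.1 CPM among negative cells of E14.5, and P5 positive values are given with and without L2P12 where it moves them. All 6 P5 negative cells were led by others, namely endothelial markers (L2N4, L2N7, L2N9), red blood cell markers (L1N3, L2N10) or fibroblast and mural markers (L2N12), against their label. Beside the red blood cell markers, L1N3 had 21648.5 CPM and L2N10 10150.5 CPM of endothelial markers. Comparisons with P5 negative cells therefore set different cell types side by side, and cell type and reporter state cannot be told apart in them. Summed G2/M transcripts, 16 genes such as Top2a and Ccnb1, ranged from 786 to 9799 CPM in E14.5 positive and from 0 to 2217 CPM in E14.5 negative cells. Among P5 positive cells the sum was 25.9 CPM in L2P10 and at least 7068 CPM in the others, so L2P10 went against its sort on this measure. Titles at E14.5 number the cells 1 to 10 and 21 to 30, with no meaning stated, and ratios within these sets are given where they differ from the pooled one by over 1.5-fold.

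The 10 genes differed most evenly between E14.5 positive and negative cells. There, 6 members (Lmnb1, Lmnb2, Lbr, Tmpo, Sun2 and Syne2) were at least 2-fold higher in positive cells, against 22.5% of the 12633 genes with at least 10 counts, and 0 were at least 2-fold lower, against 29% of those genes. The members' median log2 ratio was 1.16 and that of all genes -0.16. With 1 cell left out, 4 to 6 members were higher, the lowest count being without G27, and 4 to 6 were higher under other settings. In cells led by cardiomyocyte markers 5 members were higher, against 24.1% of genes, and 0 were lower, against 27.6%. From E14.5 to P5 in positive cells, 2 members (Lmna, Sun2) were at least 2-fold higher, against 30.3% of genes, and 5 (Lmnb1, Lmnb2, Tmpo, Sun1, Syne1) at least 2-fold lower, against 40.9% of genes. Both of these counts lay near the background, as did the median of -0.77 beside -0.39 for all genes, so the set as a whole did not stand apart and the values lie in the single genes. In cells led by cardiomyocyte markers alone, 1 member was higher (Lmna, background 24.5%) and 5 were lower (background 49%). The median there was -0.90 for the members and -0.93 for all genes. Ratios with age given below for these cells therefore sit on a lower scale than those over all cells. The 4 comparisons share groups and are not independent of each other.

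**Figure D1:**
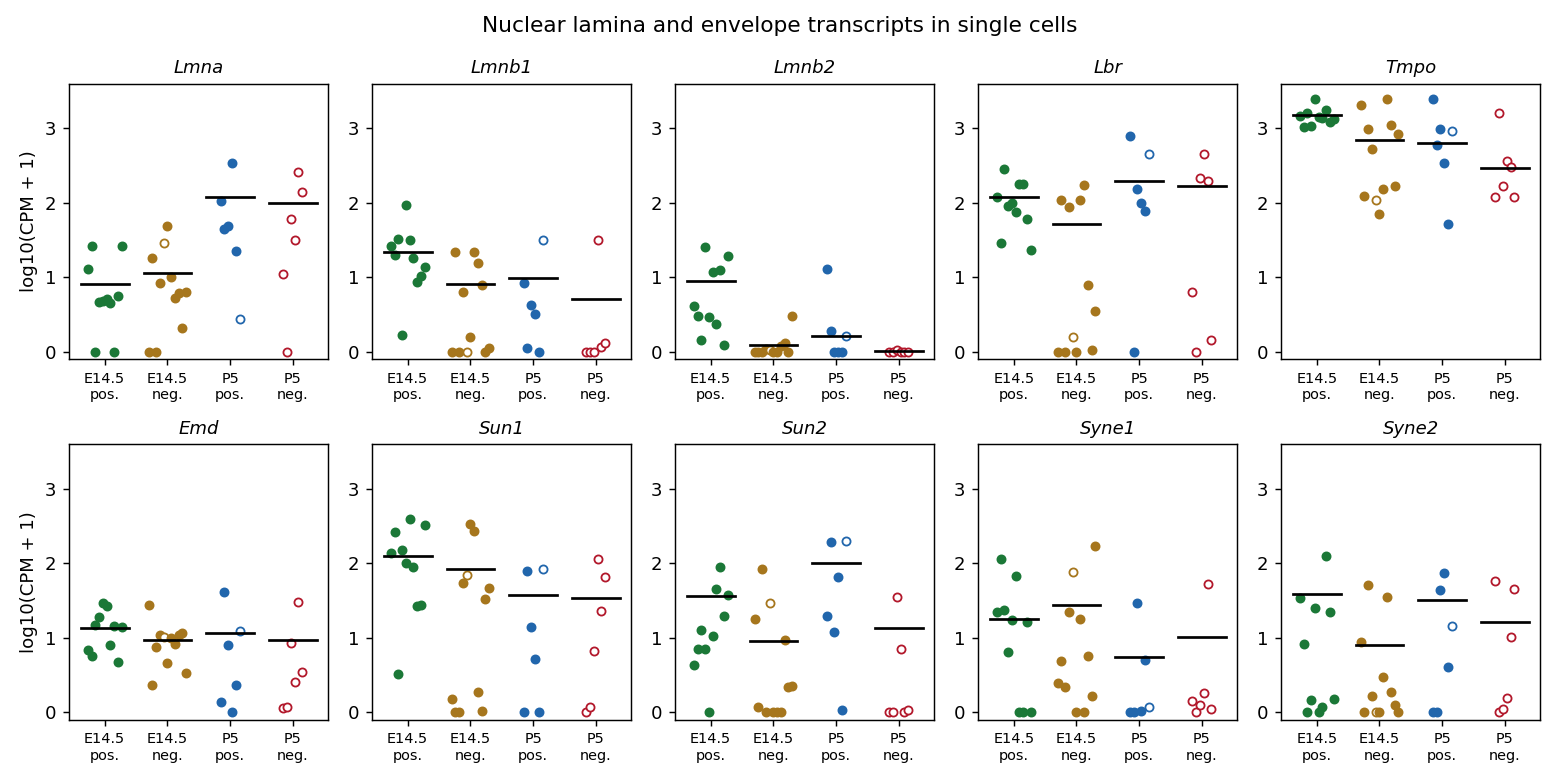
Level of each gene in each cell as log10(CPM + 1), by group. Filled points are cells led by cardiomyocyte markers, open points cells led by other markers, and the black bar is the CPM of the group's summed counts; Tmpo is at 1039 CPM or more in all 10 E14.5 positive cells, and the summed Lmna level is higher at P5 than at E14.5 in both sort groups.

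**Figure D2:**
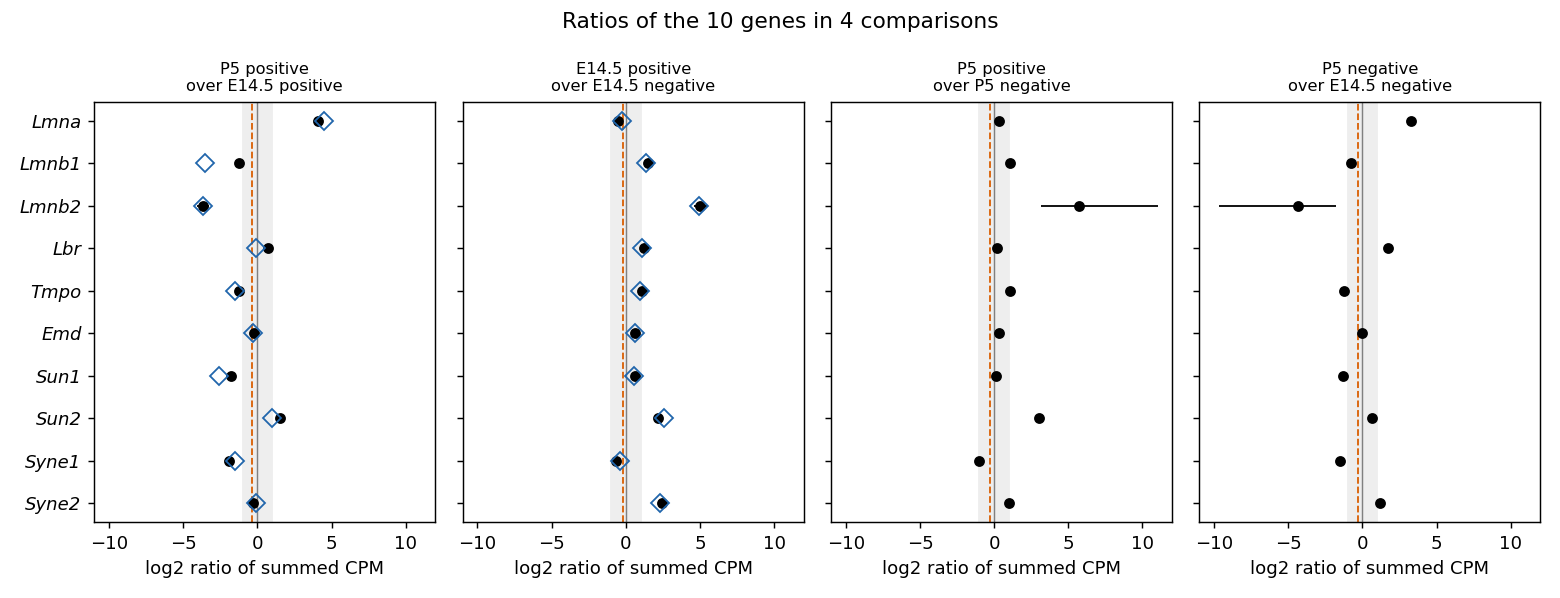
Log2 ratio of summed CPM for each gene in the 4 comparisons (black points, with 95% exact counting intervals, mostly narrower than the point), and in cells led by cardiomyocyte markers alone (blue diamonds, where both groups have such cells). The grey band spans less than 2-fold and the dashed line is the median of all genes tested; 6 genes lie to the right of the band in E14.5 positive over negative cells and 0 lie to its left.

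Lmna encodes lamins A and C, which one gene count cannot separate, and lies at chr3:88480147-88509956 (GRCm38, minus strand). Its level was 0 to 25.6 CPM in the 10 E14.5 positive cells, with a median of 3.94, and 0 to 48.0 CPM in the 11 E14.5 negative cells, with a median of 5.40. In the 5 P5 positive cells with leading cardiomyocyte markers it was 105 CPM in L1P5, 43.3 in L2P3, 47.7 in L2P7, 345 in L2P8 and 21.6 in L2P10. Thus 4 of these 5 cells lay above every E14.5 positive cell, and the ranges overlapped only through L2P10. The endothelial-marker cell L2P12 had 1.73 CPM, the lowest of its group. Over summed counts Lmna went from 7.17 CPM (E14.5 positive) to 120.2 CPM (P5 positive), log2 ratio 4.07 (95% exact counting interval 3.98 to 4.16), or 16.8-fold. L2P8 alone held 83.4% of the P5 positive counts, and without it the log2 ratio was 1.97, while without G29 it was 4.75, and with cells thinned to an equal depth it was 3.48. Between the E14.5 sort groups the Lmna log2 ratio was -0.52 (interval -0.62 to -0.41), and -1.20 without G29. Among negative cells Lmna was also higher at P5 (97.6 against 10.3 CPM at E14.5, log2 ratio 3.25, interval 3.18 to 3.32), where the cell types differ.

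Lmnb1, a B-type lamin gene at chr18:56707813-56753424 (plus strand), ran the other way between the sort groups at E14.5. It was 0.692 to 91.6 CPM in E14.5 positive cells, with a median of 18.0, and 0 to 21.1 CPM in E14.5 negative cells, with a median of 0.563. Every positive cell exceeded the negative median, 4 of 10 exceeded the highest negative cell, and the ranges overlapped. The log2 ratio of the summed levels (20.5 against 7.18 CPM) was 1.51 (interval 1.42 to 1.60), 0.99 without G8, 2.10 without N23, 2.84 among cells titled 1 to 10 and 0.41 among those titled 21 to 30. In the P5 positive cells Lmnb1 was 7.47 CPM in L1P5, 0.131 in L2P3, 3.19 in L2P7, 2.24 in L2P8, 0 in L2P10 and 30.6 in the endothelial-marker cell L2P12. The log2 ratio of P5 over E14.5 positive cells was -1.22 (interval -1.33 to -1.11), was -3.56 in cells led by cardiomyocyte markers, and without G8 was -0.69. No P5 cell led by cardiomyocyte markers reached 10 CPM of Lmnb1, which 7 of 10 E14.5 positive cells did.

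Lmnb2, the other B-type lamin gene (chr10:80901203-80918245, minus strand), showed the widest gap between the E14.5 sort groups among the members. It was 0.208 to 24.7 CPM in E14.5 positive cells, with a median of 2.59, and 0 to 2.02 CPM in E14.5 negative cells, with a median of 0. All 10 positive cells had reads, 6 of them lay above the highest negative cell (N30), and the ranges overlapped below that level. Summed levels of 7.84 and 0.240 CPM gave a log2 ratio of 5.03 (interval 4.61 to 5.48), 32.6-fold, and was 6.75 without N30 and 7.57 among cells titled 1 to 10. N30 held 72.3% of the negative counts. In P5 positive cells it was 11.8 CPM in L1P5, 0.919 in L2P3, 0.622 in L2P12 and 0 in the other 3 cells. The log2 ratio of P5 over E14.5 positive cells was -3.64 (interval -4.05 to -3.26). It was -4.65 without L1P5, which had a level inside the E14.5 range, and -1.74 with equal weight of cells. L1P5 was the shallowest cell, and its Lmnb2 level came from 30 counts.

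The A-type share of lamin reads, Lmna reads as a percentage of the reads of all 3 lamin genes, put both changes into one value per cell. It was 20.2% of the summed lamin reads in E14.5 positive cells (95% Clopper-Pearson interval 19.2 to 21.3, counting error only), with a range over cells of 0 to 55.0% and a median of 14.2%. In E14.5 negative cells it was 58.0% (56.4 to 59.7), with a range of 22.6 to 100% over the 9 cells with lamin reads and a median of 57.2%. The sort groups thus overlapped, with 1 of 10 positive and 5 of 9 negative cells above 50%. At P5 the share in positive cells was 92.7% (92.2 to 93.2) of summed reads. It was at least 84.4% in each of the 5 cells led by cardiomyocyte markers, above all E14.5 positive cells, and 5.26% in L2P12. Without L2P8 the summed share was 69.4%, and without L2P12 98.5%. P5 negative cells had 95.9%, 50.2% in the endothelial-marker cell L2N9 and at least 99.8% in the other 4 cells with lamin reads. The 3 genes differ in length and sequence, so these shares compare groups and do not give molar amounts of the proteins.

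**Figure D3:**
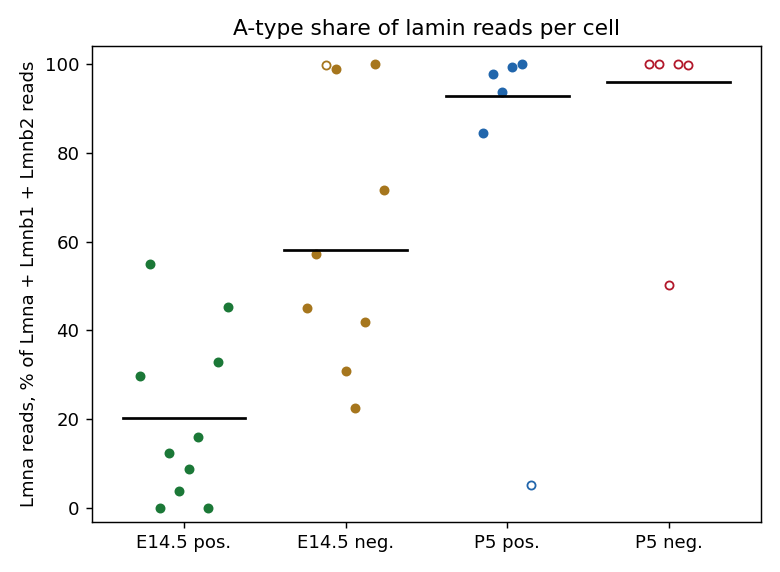
Lmna reads as a percentage of Lmna, Lmnb1 and Lmnb2 reads in each cell, by group. Filled points are cells led by cardiomyocyte markers, open points other cells, and bars the share of the summed reads; the bar stands at 20.2% in E14.5 positive and 92.7% in P5 positive cells, and 1 open P5 positive point (L2P12) lies at 5.26%.

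Lbr encodes the lamin B receptor, an inner membrane protein that binds B-type lamins and heterochromatin and also acts in sterol synthesis (chr1:181815335-181843046, minus strand). All 10 E14.5 positive cells had 22.5 CPM or more, with a median of 94.8 and a highest value of 287 CPM. In E14.5 negative cells the median was 2.49 and the highest 175 CPM: N5, N8, N23 and N24 had 87.0 CPM or more and the other 7 cells had 6.94 CPM or less, so the negative cells fell into a high and a low set. The log2 ratio (117 against 50.1 CPM) was 1.23 (interval 1.19 to 1.26), 0.95 without N28 and 1.82 without N24. At P5, Lbr in positive cells was 776 CPM in L1P5, 0 in L2P3, 154 in L2P7, 98.5 in L2P8, 76.9 in L2P10 and 455 in L2P12. Summed, it was 193 CPM, a log2 ratio to E14.5 positive cells of 0.72 (interval 0.69 to 0.75). In cells led by cardiomyocyte markers this ratio was -0.12, where the median of all genes was -0.93. With equal weight of cells it was 1.20, where the median of all genes was -0.51. The sign of the Lbr ratio changed, so no direction with age can be given. Its window, printed above, was the one of those 3 with both motifs.

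Tmpo encodes the lamina-associated polypeptides LAP2, whose splice forms one gene count cannot separate (chr10:91147571-91181315, minus strand). It was 1039 to 2484 CPM in E14.5 positive cells, with a median of 1402, a spread of under 3-fold. In E14.5 negative cells it was 69.8 to 2463 CPM with a median of 526. Every positive cell lay above the negative median, and N3, N24 and N25 among the negative cells reached the positive range. Summed levels of 1513 and 706 CPM gave a log2 ratio of 1.10 (interval 1.09 to 1.11), close to the 2-fold limit, which ran from 0.88 to 1.69 when 1 cell was left out. The P5 positive values of Tmpo were 2458 CPM in L1P5, 600.1 in L2P3, 966 in L2P7, 336 in L2P8, 51.2 in L2P10 and 914 in L2P12. All of these except L1P5 lay below the lowest E14.5 positive cell. P5 over E14.5 positive cells gave a log2 ratio of -1.27 (interval -1.29 to -1.26), -0.89 with DESeq2 size factors and -0.74 with equal weight of cells.

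Emd encodes emerin, a LEM-domain protein of the inner nuclear membrane (chrX:74254687-74261548, plus strand). It was 3.79 to 28.1 CPM in E14.5 positive, 1.31 to 26.4 in E14.5 negative, 0 to 40.0 in P5 positive and 0.142 to 29.02 CPM in P5 negative cells. The ranges overlapped in every comparison. Its 4 summed levels lay between 8.35 and 12.7 CPM, and none of its 4 log2 ratios (-0.26, 0.60, 0.34 and 0.00) passed 2-fold. One cell, L2P3, held 62.5% of the P5 positive counts, and without it the ratio of P5 over E14.5 positive cells was -1.41 and that of P5 positive over negative cells -0.81. Without L2N10 the ratio of P5 positive over negative cells was 1.41 and that of P5 over E14.5 negative cells -1.07, so single cells took 3 of the 4 Emd ratios past 2-fold.

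Sun1 and Sun2 encode the inner membrane side of the bridge to the cytoskeleton, and their log2 ratios with age had opposite signs. Sun1 (chr5:139200637-139249840, plus strand) was 2.28 to 397 CPM in E14.5 positive cells, with a median of 119. In P5 positive cells it was 0 in L1P5, 79.0 in L2P3, 13.1 in L2P7, 4.15 in L2P8, 0 in L2P10 and 82.8 CPM in L2P12. All 6 lay below the E14.5 positive median, within an overlapping range. The log2 ratio (36.3 against 125 CPM) was -1.78 (interval -1.84 to -1.73), and -2.56 in cells led by cardiomyocyte markers. Between the E14.5 sort groups the Sun1 ratio was 0.59 (interval 0.56 to 0.62), 1.36 without N23, with 2.31 among cells titled 1 to 10 and -0.075 among those titled 21 to 30.

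Sun2 (chr15:79724070-79742536, minus strand) was 0 to 87.4 CPM in E14.5 positive cells, with a median of 10.6. In P5 positive cells it was 18.5 CPM in L1P5, 192 in L2P3, 11.1 in L2P7, 64.6 in L2P8, 0.0796 in L2P10 and 201 in L2P12. Of these 6 cells, 5 lay above the E14.5 positive median and 2 above its highest cell. The log2 ratio of 1.51 (interval 1.46 to 1.55) was 0.96 in cells led by cardiomyocyte markers and 2.41 without G27. Its ratio of E14.5 positive over negative cells, 2.15 (interval 2.06 to 2.23), was 1.24 without G27, 2.91 without N7 and 0.83 with equal weight of cells. It was -2.02 among cells titled 1 to 10 and 4.91 among those titled 21 to 30, so its direction was not the same in both sets of cells.

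Syne1 and Syne2 encode nesprins, giant outer membrane proteins that bind actin and other cytoskeletal partners, and both were patchy, with high levels in a few cells. Syne1 (chr10:5020917-5551482, minus strand) was 0 to 115 CPM in E14.5 positive cells, with a median of 15.9, and 0 to 170.0 CPM in E14.5 negative cells, with a median of 3.84. Its ratio between these groups was -0.66 (interval -0.73 to -0.59), 0.36 without N30, 0.36 among cells titled 1 to 10 and -2.75 among those titled 21 to 30. P5 positive values of Syne1 were 28.7 CPM in L2P7, 4.06 in L2P10 and at most 0.178 CPM in the other 4 cells. P5 over E14.5 positive cells gave -1.90 (interval -2.05 to -1.75), and -4.58 without L2P7.

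Syne2 (chr12:75818134-76110926, plus strand) was 0 to 127 CPM in E14.5 positive cells, with a median of 3.88, and 0 to 50.7 CPM in E14.5 negative cells, with a median of 0.641. G27, the deepest cell, held 80.2% of the positive counts. The ratio of 2.45 (interval 2.37 to 2.54) was 0.52 without G27, 3.55 without N24, 1.28 with equal weight of cells and 0.44 among cells titled 1 to 10, which leaves out G27, against 3.08 among those titled 21 to 30, so its place among the 6 higher genes rested on 1 cell. P5 positive values of Syne2 were 0 to 73.6 CPM with a median of 8.24. The ratio to E14.5 positive cells was -0.31 (interval -0.38 to -0.25), 1.62 without G27 and -1.51 without L2P8, and no direction can be given for it.

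Against the P5 negative cells, 4 members (Lmnb1, Lmnb2, Tmpo and Sun2) had a level at least 2-fold higher in the positive cells, against 34.2% of 11567 genes, and 1 (Syne1) was at least 2-fold lower, against 39.4% of genes. Both shares were near or below the background, with a median of 0.66 beside -0.29 for all genes. Sun2 had a log2 ratio of 3.01 (interval 2.92 to 3.11). Every P5 positive cell lay above the P5 negative median of 0.0297 CPM, but this median lies under the 3-count floor. L2P10 exceeded it with 1 count. The negative cell L2N7, at 34.4 CPM, lay above the positive cells L1P5, L2P7 and L2P10. L2N7 held 93.5% of the negative Sun2 counts, and without it the ratio was 6.35. Lmnb2 had 1 count in all P5 negative cells together, and its log2 ratio of 5.71 has an interval of 3.17 to 11.03, with 8.56 under equal weight of cells. The Lmnb1 ratio of 1.09 was -1.25 without L2P12 and 6.50 without L2N9, both cells led by endothelial markers. The Syne1 ratio of -1.04 was 3.88 without L2N10 and -3.72 without L2P7.

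Between the 2 negative groups, 3 members (Lmna, Lbr, Syne2) were at least 2-fold higher at P5, against 33.6% of 12552 genes, and 4 (Lmnb2, Tmpo, Sun1, Syne1) at least 2-fold lower, against 41.8% of genes. Both shares lay near the background. Lbr was higher by a log2 ratio of 1.72 (interval 1.69 to 1.76), from 50.1 to 165 CPM, with 193 to 444 CPM in L2N7, L2N9 and L2N10 and at most 5.24 CPM in the other 3 cells. Tmpo was lower by the same log2 ratio as in the positive cells, -1.27 (interval -1.29 to -1.25), and -0.68 without N24. The endothelial-marker cell L2N9 had 30.4 CPM of Lmnb1 and, with 1186 CPM, the highest G2/M sum of its group, and the other 5 cells had at most 0.297 CPM of Lmnb1.

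Levels of several members were set beside the G2/M sum within each E14.5 sort group. Over the 10 negative cells led by cardiomyocyte markers, Pearson's r on log2(CPM + 1) was 0.72 for Lbr (Spearman's rho 0.78) and 0.63 for Lmnb1 (rho 0.74). In the same cells it was 0.62 for Lmna (rho 0.60) and -0.74 for Sun2 (rho -0.72), so the relation was not particular to Lbr and Lmnb1. N5, N23 and N24, the cells with over 10 CPM of Lmnb1, were also among the cells with high Lbr. Over the 10 positive cells r was 0.44 for Lbr (rho 0.42) and 0.10 for Lmnb1 (rho 0.07). There it was -0.51 for Lmna (rho -0.45) and 0.48 for Sun2 (rho 0.62), both opposite in sign to the negative cells. Tmpo in negative cells had r = -0.12 (rho -0.19) with G2/M transcripts and 0.66 (rho 0.72) with the summed S phase transcripts, 16 genes such as Mcm2 and Rrm2. Lmnb2 had r = 0.40 (rho 0.83) with S phase transcripts there. It had 1 count in N8, 4 in N24, 7 in N25, 34 in N30 and 0 in the rest of these cells, so the ranks rest on few reads. In positive cells the r of Tmpo with S phase transcripts was -0.21 (rho -0.42), and that of Lmnb2 was 0.37 (rho 0.24). These correlations describe 10 cells each, chosen after the values were seen, and the points share library preparation and differ in depth (r of Lbr with total count 0.30 in negative cells).

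**Figure D4:**
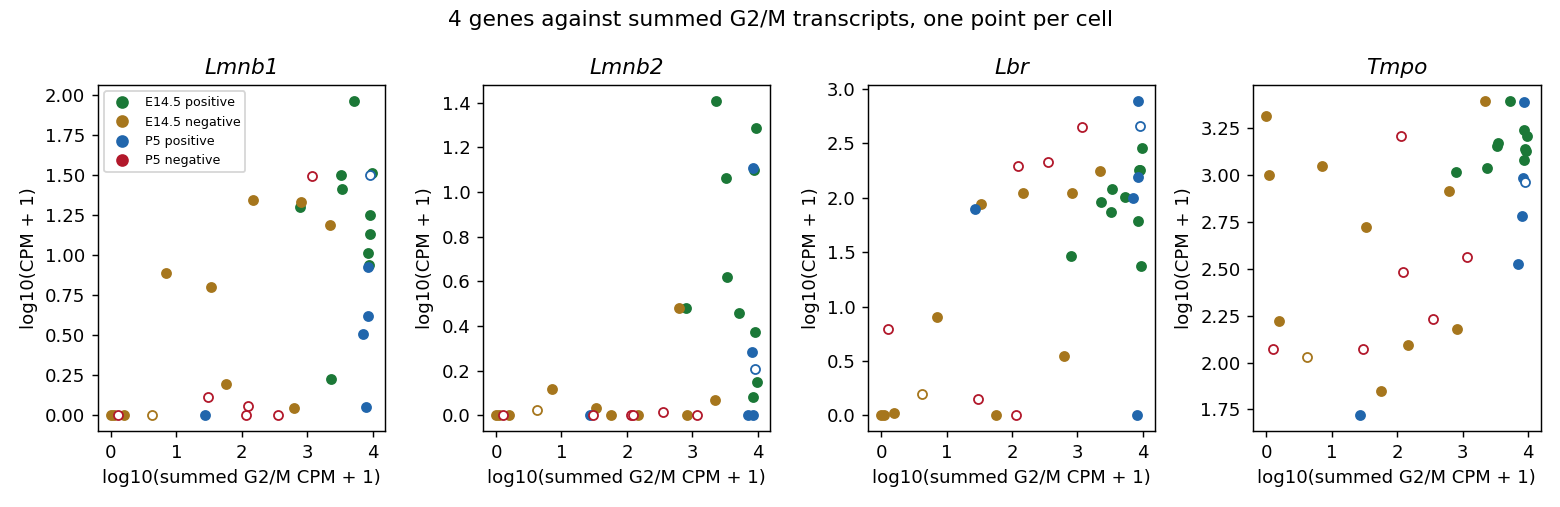
Lmnb1, Lmnb2, Lbr and Tmpo against the summed level of 16 G2/M transcripts, both as log10(CPM + 1), with 1 point per cell coloured by group and open where other than cardiomyocyte markers led. E14.5 positive cells cluster at the right with Lbr at 22.5 CPM or more, and the E14.5 negative cells with Lmnb1 over 10 CPM (N5, N23, N24) have G2/M sums of 147 to 2217 CPM. The negative cell N30 has a G2/M sum of 628 CPM but 0.119 CPM of Lmnb1 and 2.49 CPM of Lbr.

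Other genes of the envelope were read from 4 lists. Of 31 nucleoporins, the proteins of the nuclear pore, 15 were at least 2-fold higher and 2 lower in E14.5 positive over negative cells, against the 22.5% and 29% of all genes given above, with a median log2 ratio of 0.91. Nup35 was 82.1 against 9.62 CPM, a log2 ratio of 3.09, and 5.54 without N10 (at least 10 CPM in all 10 positive cells but in 3 of 11 negative ones), while Nup98 was 12.7 against 54.4 CPM (-2.10). From E14.5 to P5 in positive cells, 5 nucleoporins were higher and 16 lower, with a median of -1.02, against 30.3% higher, 40.9% lower and a median of -0.39 for all genes. In cells led by cardiomyocyte markers 3 were higher and 14 lower, against 24.5% and 49%, so the lower count was then below the background. Ranbp2, a filament protein on the cytoplasmic face of the pore, was 9.99 against 121 CPM (-3.60, and -4.30 in cells led by cardiomyocyte markers).

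Of 14 inner membrane and lamina partners, 3 were at least 2-fold higher and 1 lower in E14.5 positive over negative cells, with a median of 0.47. The higher share lies near the 22.5% of all genes, of which 29% were lower. In cells led by cardiomyocyte markers 5 partners were higher and 1 lower, against 24.1% and 27.6% of all genes. Nemp1, an inner nuclear membrane protein, was 45.0 against 4.46 CPM (log2 ratio 3.33) with at least 10 CPM in 8 positive cells and in 1 negative cell. Mlip, a muscle protein that binds lamin A/C, was 113 against 207 CPM (-0.87) and reached 10 CPM in 10 cells of each E14.5 group. From E14.5 to P5 in positive cells 3 partners were higher and 4 lower, against 30.3% and 40.9% of all genes. In cells led by cardiomyocyte markers 5 were higher and 6 lower, against 24.5% and 49%. Banf1, the barrier-to-autointegration factor that links LEM-domain proteins to DNA, was 440.0 against 131 CPM (1.74) and reached 10 CPM in all 6 and all 10 cells. Tor1aip2 was 39.3 against 106 CPM (-1.43). Mlip reached 122 CPM in the positive cells of P5 and had 0 counts in the negative ones. With 3 counts over that group as the floor, the positive cells were at least 3366-fold higher.

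Of 14 genes of envelope breakdown and resealing, 3 were at least 2-fold higher and 3 lower in E14.5 positive over negative cells. The shares over all genes were 22.5% and 29%, so neither count stood above the background. Vrk1, a kinase that releases Banf1 from chromatin, was 61.4 against 23.7 CPM (log2 ratio 1.37), and Spast, a microtubule-severing enzyme of resealing, was 56.1 against 92.8 CPM (-0.73). From E14.5 to P5 in positive cells 6 of 13 tested were higher and 3 lower, against 30.3% and 40.9% of all genes, with a median of 0.63. In cells led by cardiomyocyte markers 3 were higher and 1 lower, against 24.5% and 49%. The median of the list was then -0.28, beside -0.93 for all genes in these cells and -0.39 for all genes before. Ctdnep1 had a log2 ratio of 1.33 and Spast of -1.40. Of 5 lamin processing genes 1 was higher and 1 lower between the E14.5 sort groups, against 22.5% and 29% of all genes. With age in positive cells 2 were higher and 1 lower, against 30.3% and 40.9%. In cells led by cardiomyocyte markers the counts with age were 1 and 1, against 24.5% and 49%. Fnta, a subunit of the farnesyltransferase that modifies prelamin A and B-type lamins, was 112 and 128 CPM in E14.5 positive and negative cells and 124 CPM in P5 positive cells.

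By Pearson's r on log2(CPM + 1) over the 25 cells led by cardiomyocyte markers, among 6013 other genes, the genes most like each member differed from member to member. Lmna was closest to Ogdh (r = 0.86), Myh6 (0.77) and Pcp4l1 (0.76), and Tmpo to Uba2 (0.81), Vrk1 (0.80) and Stk17b (0.77). Lbr was closest to Usp1 (0.78), Sdpr (0.72) and Exosc8 (0.72), and Lmnb1 to Kctd3 (0.77), Rlim (0.77) and Pcm1 (0.74). Sun2 was closest to Ddah2 (0.84), Ccnb1 (0.66) and Cdkn3 (0.65), and Sun1 to Gnaq (0.83). Among the members themselves Lmnb1 and Lbr had r = 0.68, and Lmna and Emd -0.57. The 25 cells pool 10 E14.5 positive, 10 E14.5 negative and 5 P5 positive cells, so differences of age and sort enter each r. Depth and library preparation are also shared in these values, which are the highest of many and carry no test.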

How the data were processed

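The authors deposited raw read counts per gene for 33 single cells after antisense RNA amplification, per the labels' protocols. The submitters' processing notes name CASAVA 1.8.2, STAR 2.4.0j, HTSeq 0.6.1p1 and mm10; strand use and molecular identifiers are not given in the sources used here, so antisense or overlapping genes could share reads, and no gene overlapping a member's exons had a row of its own. Amplified reads are not independent molecules, and all intervals cover counting error only. Counts were summed per group, divided by summed totals (CPM) and compared as log2 ratios with exact binomial intervals (Python 3.11.15, scipy 1.17.1); 0.5 count was added where a side was 0. A gene counted as higher or lower at 2-fold, among genes with at least 10 counts. No test was run, since each group is 1 sample. Named genes outside the members are the highest and lowest ratio per list among genes with at least 20 CPM in the higher group of which no cell held over 50% of counts, and the 3 most alike genes. Members and lists were chosen with earlier results of these data known. Scaling by edgeR 4.0.16 (TMM) and DESeq2 1.42.0 size factors, equal cell weights, thinning to 8000000 counts and leaving out cells were tried. Positions are from GENCODE on GRCm38. The ratio code was tested on simulated data.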

Additional observations from a re-analysis of the deposited data

Results flagged for a closer look

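Within groups of 6 or 10 cells, a cell was picked out when its gap to the nearest other cell was large against the group's whole range. The limit was Dixon's 95% limit, which about 1 of 20 groups of normally distributed values pass. Of 36 combinations of a gene or summed list with a group, 18 held such a cell, 15 of them for members. CPM of single cells are skewed and often 0, so that rate does not hold here and the 18 cannot be read against it. The 11 E14.5 negative cells were too many for this rule. Among E14.5 positive cells, G8 stood apart for Lmnb1 (91.6 CPM, next 31.9) and for Tmpo (2484 CPM, next 1738), and G27 stood apart for Sun2 (87.4 CPM, next 44.9) and Syne2 (126.5 CPM, next 33.4). G6 stood apart in summed S phase transcripts (12679 CPM, next 5268). Among P5 positive cells, L2P8 stood apart for Lmna (345 CPM, next 105), L1P5 for Lmnb2 (11.8 CPM, next 0.919), L2P3 for Emd (39.97 CPM, next 11.5) and L2P7 for Syne1 (28.7 CPM, next 4.06). L2P12, led by endothelial markers, stood apart for Lmnb1 (30.6 CPM, next 7.47), and L2P10 stood below the rest in summed G2/M transcripts (25.9 CPM, next 7068). Among P5 negative cells, L2N9 stood apart for Lmnb1 (30.4 CPM, next 0.297) and in summed G2/M transcripts (1186 CPM, next 358). L2N7 stood apart for Sun2 (34.4 CPM, next 6.08) and for Lmnb2 (0.0352 CPM, which is 1 count, the rest 0). L2N10 stood apart for Emd (29.02 CPM, next 7.47) and Syne1 (51.7 CPM, next 0.817), and L2N4 for Tmpo (1606 CPM, next 366).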

How the results depend on the processing

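Spread here is between cells, not animals, and counting intervals were narrow beside it except for Lmnb2 in P5 negative cells (1 count). Of 280 values under other settings, 245 stayed within 1.5-fold, 33 moved and 2 reversed. Of 660 values without 1 cell, 602 stayed, 56 moved and 2 reversed. A ratio counted as reversed only when it was at least 2-fold in the main setting and its sign changed. Smaller ratios that changed sign are counted as moved or stayed. For example, Lmna in P5 positive over negative cells went from 0.30 to -1.80 without L2P8. DESeq2 size factors moved the median log2 ratio of all genes from -0.39 to 0.00 for P5 over E14.5 positive cells. Counts of members that moved and the values that reversed follow, and their cause was not tested. For P5 over E14.5 positive cells, 3 members rather than 5 were lower with DESeq2 size factors, 1 rather than 2 was higher in cells led by cardiomyocyte markers, and leaving out 1 cell gave 1 to 3 higher. For E14.5 positive over negative cells, 1 member rather than 0 was lower within title numbers 1 to 10 and within 21 to 30, and 0 to 1 without 1 cell; Sun2 reversed to -2.02 within 1 to 10. For P5 positive over negative cells, 2 members rather than 4 were higher with equal cell weights and 2 to 5 without 1 cell; 0 rather than 1 was lower with equal weights, TMM factors, totals without the 20 most abundant genes or thinning, and 0 to 1 without 1 cell. There Lmnb1 reversed to -0.041 after thinning and ran from -1.25 to 6.50 without 1 cell, and Syne1 from -3.72 to 3.88. For P5 over E14.5 negative cells, 2 to 5 members were lower without 1 cell. No paired analysis was possible because the replicate numbers only name cells, each group is 1 sample and no test was run.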
